A study of Mus musculus with 8 samples.

Results

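The 10 genes described here are immediate early and stress-response genes, namely Fos, Fosb, Jun, Junb, Egr1, Ier2, Atf3, Zfp36, Cebpb and Cebpd. They were taken by symbol from the table of read counts, which holds 46517 genes, and all 10 were found and passed the filter on low counts that left 16469 genes for testing. The RNA came from epididymal ducts, the male derivative of the Wolffian duct, dissected from mouse embryos at E18.5, and was sequenced as total RNA libraries. There were 4 control libraries (numbers 1, 3, 4 and 6, genotype Ptk7+/flox:T-Cretg:mT/mG) and 4 libraries labelled conditional knockout (cKO, numbers 1, 2, 4 and 5, genotype Ptk7Xst87/flox:T-Cretg:mT/mG). Xst87 is a disrupted allele of Ptk7, a receptor-like protein of planar cell polarity. The controls therefore share the T-Cre transgene, the mT/mG membrane reporter and 1 floxed allele with the knockouts. T-Cre, driven by the T (Brachyury) promoter, is active in early mesoderm and its descendants, so the recombination is not restricted to the duct epithelium or to its mesenchyme. Nothing in the labels tells whether each library is 1 embryo, 1 litter or a pool, so p-values here reflect only the spread among these samples, part of which may be technical.

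Immediate early genes are transcribed within minutes of a stimulus without new protein synthesis, when serum response factor, its ETS partners and CREB, already bound at their promoters, are phosphorylated. Fos and Jun proteins pair through leucine zippers to form the transcription factor AP-1, and EGR and C/EBP proteins carry the response on to later genes. Cutting, warming or dissociating a tissue is known to induce the same genes, which is why they are read as a sign of handling as well as of growth factor signalling.

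Facts that bear on every value below come first. Sequencing depth was even, at 24807970 to 29590547 counts a library. The library labelled Ptk7 cKO 5 had 194 CPM of Ptk7 (read counts scaled to a common library total with TMM factors), within the control range of 112.5 to 313, while the libraries labelled cKO 1, 2 and 4 had 7.33 to 12.5, so its level goes against its label. Comparisons were therefore also made without that library. Control 3 stood apart by base composition. Its median log2 deviation from the mean of the 8 libraries was 0.15 in the fifth of genes lowest in transcript GC content (up to 43.9% GC) and -0.30 in the fifth highest (from 55.5%), whereas the other 7 libraries lay between -0.05 and 0.00 and between 0.02 and 0.09. Duct epithelium markers (11 genes, among them Epcam, Cdh1 and Pax2) summed to 996 to 1150 CPM in controls and 842 to 1203 in the knockout label. Mesenchyme markers (10 genes, among them Pdgfra and Col1a1) summed to 15790 to 20700 and 17560 to 23020 CPM. Genes of both tissues were thus present in every library. At an unadjusted p under 0.05, 7 of 11 epithelial markers were lower in the knockout label and 1 was higher (median log2 fold change -0.36), 4 of 8 smooth muscle markers were lower and 1 was higher (median -0.32), and 4 of 6 mesothelium markers were higher (median 0.38), beside 4.87% lower and 3.5% higher over all tested genes. In edgeR 0 of these markers passed the adjusted threshold. DESeq2, which called 1.13% of the genes it tested, called 3 epithelial markers (Lhx1, Esrp1 and Cdh1, adjusted p = 0.00127, 0.0159 and 0.0498) and 3 mesothelium markers (Myrf, Wt1 and Upk1b, adjusted p = 2.25e-05, 0.000251 and 0.0107). Their part in the results below was not tested. In bulk tissue a change in the number of cells of a type and a change in RNA per cell cannot be told apart.

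The regulatory sequence of these genes is shown for 4 of them, because Fos, Fosb and Atf3 had levels that moved alike between libraries and Cebpb is the member that differed most between the labels. RefSeq promoters (GRCm38.p6) were matched for 7 of the 10 members, with none for Egr1, Ier2 and Cebpd. Each line gives the 250 bases before the transcription start, 5′ to 3′ on the strand of the gene. Capitals mark TGACG on either strand, which is the core of the cyclic AMP response element TGACGTCA bound by CREB and ATF proteins, and the TATA box TATAAA. The start used for Atf3 lies inside the annotated span of the gene, which also has a start further upstream.
Fos, chr12:85473640-85473889, plus strand: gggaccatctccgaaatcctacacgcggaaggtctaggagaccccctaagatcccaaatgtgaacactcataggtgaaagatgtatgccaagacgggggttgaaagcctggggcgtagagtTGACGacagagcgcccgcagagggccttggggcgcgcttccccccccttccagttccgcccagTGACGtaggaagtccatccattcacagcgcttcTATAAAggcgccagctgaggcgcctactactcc
Fosb, chr7:19310046-19310295, minus strand: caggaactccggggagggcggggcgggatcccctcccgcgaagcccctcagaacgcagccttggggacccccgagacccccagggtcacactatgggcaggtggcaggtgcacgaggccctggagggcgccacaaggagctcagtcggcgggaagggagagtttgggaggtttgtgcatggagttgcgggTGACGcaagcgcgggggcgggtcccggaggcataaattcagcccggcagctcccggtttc
Atf3, chr1:191183334-191183583, minus strand: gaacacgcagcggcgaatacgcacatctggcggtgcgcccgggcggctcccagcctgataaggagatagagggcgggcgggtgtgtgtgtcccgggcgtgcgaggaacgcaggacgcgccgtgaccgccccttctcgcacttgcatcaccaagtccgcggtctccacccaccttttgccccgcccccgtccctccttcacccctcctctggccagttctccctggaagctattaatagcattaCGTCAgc
Cebpb, chr2:167688665-167688914, plus strand: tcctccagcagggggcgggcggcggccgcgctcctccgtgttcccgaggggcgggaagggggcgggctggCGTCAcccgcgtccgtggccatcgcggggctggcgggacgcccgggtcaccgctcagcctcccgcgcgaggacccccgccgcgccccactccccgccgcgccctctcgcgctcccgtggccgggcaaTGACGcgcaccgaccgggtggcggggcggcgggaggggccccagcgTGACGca

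The core TGACG occurred in the promoters of Fos, Fosb, Junb, Atf3 and Cebpb, that is in 5 of 7. It occurred in 17.7% of the 32817 RefSeq promoters of the same length outside chromosome 18. In Fos the site nearest the start lay 66 to 62 bases before it, and in Fosb 60 to 56 bases before it. Cebpb held 3 such sites, the nearest of them 7 to 3 bases before the start. The full element TGACGTCA was found in 0 of the 7 windows (1.55% of the 32817 promoters), as was the AP-1 site TGANTCA (6.75%). Only these exact letters were counted, so variants such as TGACATCA, present in the window of Jun, were left out. A CArG box, the site of serum response factor, occurred in 1 window, that of Zfp36 (1.47% of the 32817 promoters). It lay 58 to 49 bases before the start used. The Zfp36 window (28379229 to 28379478) overlaps the annotated span of the gene (28376784 to 28379255). The start used there thus lies inside that span, and distances from the annotated end of the gene are shorter. TATAAA was present in 1, that of Fos (12.4%). These matches describe letters within 250 bases and say nothing of binding.

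Per unit of length, Ier2 and Jun were the most abundant members in the duct, and Fos and Fosb were the lowest. Levels are given as RPKM, the CPM per kilobase of summed exon length, as mean ± SD over the 8 libraries of both labels. Ier2, which encodes a short-lived nuclear protein induced by growth factors, was highest at 41.5 ± 7.11 RPKM (n = 8). Jun, the main partner of Fos in AP-1, followed at 39.6 ± 8.43, and these 2 genes did not differ beyond their spread. Cebpd (20.9 ± 4.35) and Cebpb (14.3 ± 4.96), bZIP factors induced by inflammatory cytokines, came next and overlapped. Zfp36, or tristetraprolin, which binds AU-rich mRNAs and speeds their decay, stood at 9.13 ± 1.42, beside Junb at 8.62 ± 3.07, a Jun relative that tempers the activity of Jun. Egr1, a zinc finger factor, had 5.06 ± 1.254 RPKM and Atf3, a stress-induced bZIP repressor, had 3.53 ± 1.24, again with overlapping ranges. Fos stood at 1.46 ± 0.48 and Fosb at 0.24 ± 0.14 RPKM. Ranked among all tested genes by RPKM, Ier2 lay at percentile 90.0 and Jun at 89.5, while Fos lay at 24.3 and Fosb at 5.32.

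Within the AP-1 family, Jun family transcripts far outnumbered Fos family ones. Jund, the constitutive member, had 117 ± 31.6 RPKM and made up 56.7% of the summed RPKM of the 14 family genes listed, Jun 19.1% and Junb 4.16%. Atf2 was the third most abundant (10.3 ± 0.95 RPKM). The leading Fos family gene was Fosl2 with 5.30 ± 0.67 RPKM, 2.56% of the family sum, against 0.70% for Fos, 0.57% for Fosl1 and 0.12% for Fosb. Among C/EBP genes, Cebpd and Cebpb were followed by Cebpg (9.31 ± 0.75) and Cebpa (7.00 ± 1.45). Zfp36 was the lowest of the 3 genes of its family, below Zfp36l1 (48.3 ± 4.01) and Zfp36l2 (34.8 ± 4.75). Egr1 stood above its relatives Egr3 (0.40 ± 0.21) and Egr2 (0.17 ± 0.05) but below the EGR corepressors Nab2 (14.4 ± 2.33) and Nab1 (11.7 ± 0.61). Between the labels 0 genes of these families were called in edgeR. At an unadjusted p under 0.05, 1 of 13 tested AP-1 genes was higher (Jdp2, log2 fold change 0.40, SE 0.17), 2 of 5 C/EBP genes were higher (Cebpb and Ddit3), 1 of 5 EGR and NAB genes was lower (Egr1) and 0 of 3 Zfp36 genes passed, where 3.5% of all tested genes were higher and 4.87% lower.

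**Figure D1:**
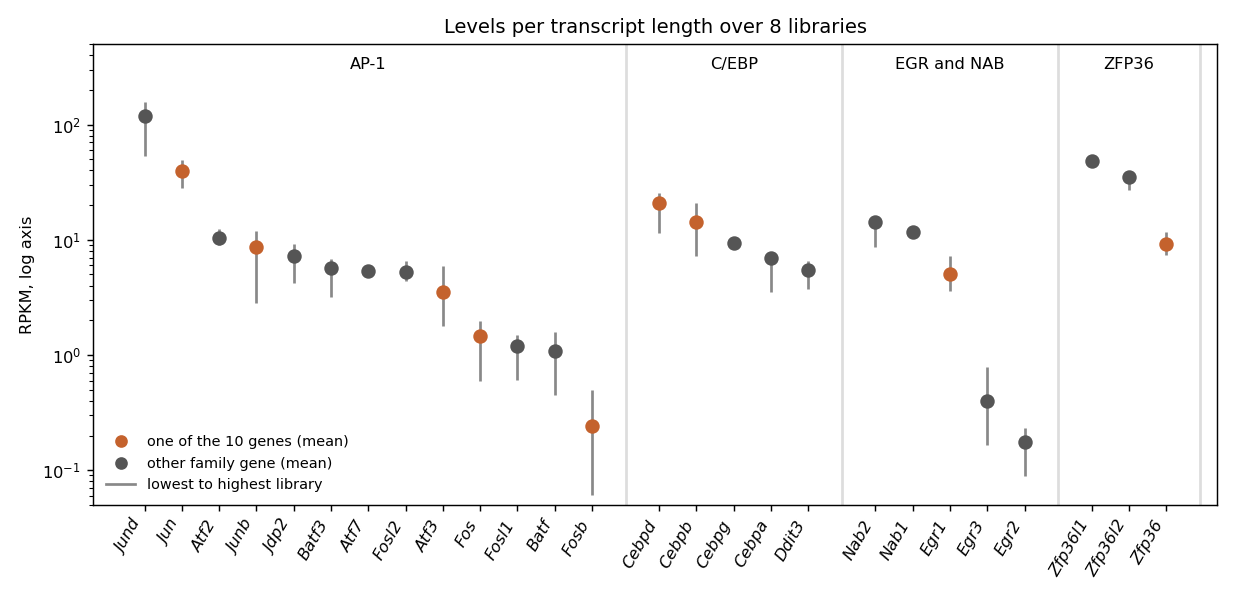
Mean RPKM on a log axis of the tested genes of 4 families, with a line from the lowest to the highest of the 8 libraries and the members in orange. Jund (117) and Jun (39.6) lead the AP-1 genes, and Fos (1.46) and Fosb (0.24) lie near the bottom.

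Setting the knockout label against control asks whether this response differed between the ducts when Ptk7 was targeted. Cebpb was the 1 member higher in every library of the knockout label. Egr1 was below every control in the 3 knockout-labelled libraries with low Ptk7, and the other 8 members had overlapping groups and log2 fold changes of less than 2 SE. In the edgeR quasi-likelihood fit 0 of the 10 members had an adjusted p under 0.05, and 0% of the 16469 tested genes were called, against 184 genes in DESeq2. At an unadjusted p under 0.05, 1 of 10 members was higher (3.5% of all tested genes) and 1 of 10 was lower (4.87%). The median log2 fold change of the members was 0.16, with 7 of 10 above 0, beside 0.01 with 8468 of 16469 above 0 over all tested genes. Without the library labelled cKO 5 the 8 members other than Cebpb and Egr1 still had overlapping groups, with log2 fold changes of -0.26 (Zfp36) to 0.37 (Jun) and edgeR adjusted p from 0.599 to 0.916.

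**Figure D2:**
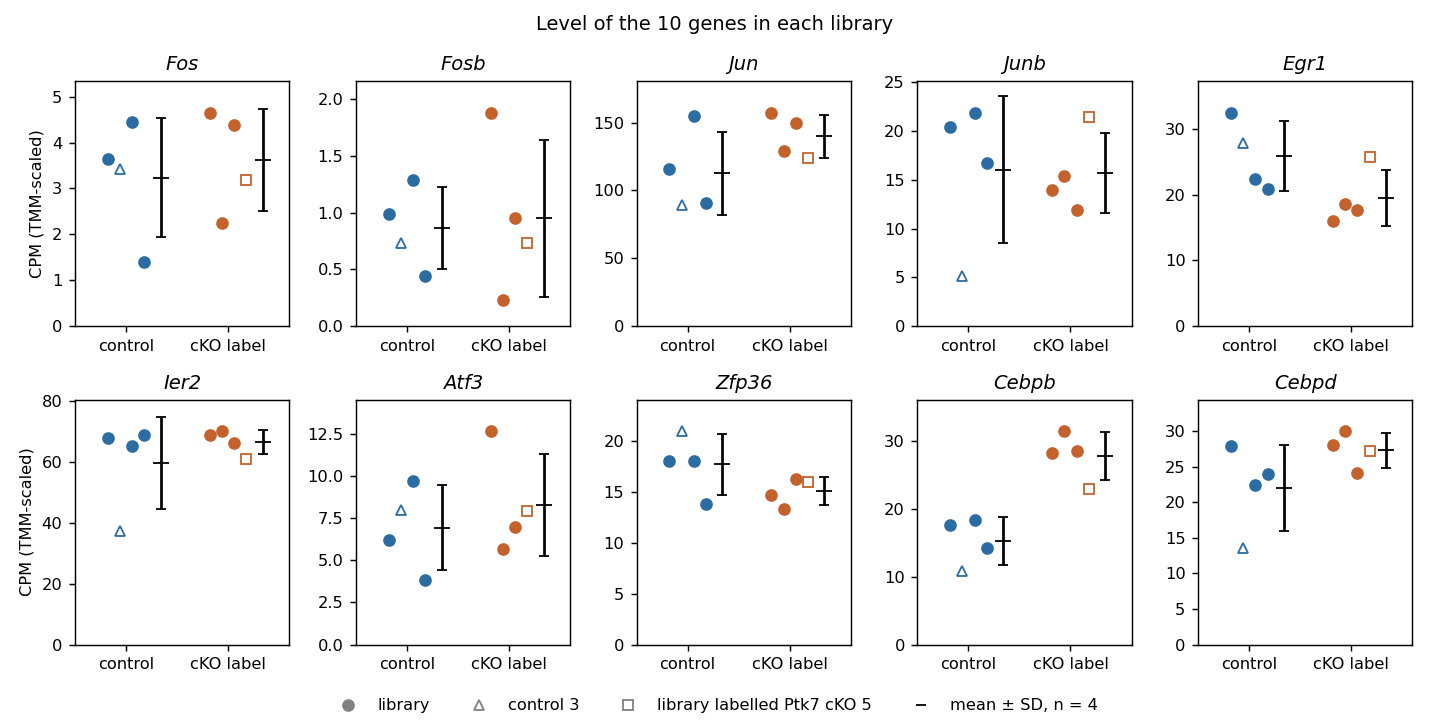
CPM of each member in each library by label, with the mean ± SD of 4 libraries in black, open triangles for control 3 and open squares for the library labelled Ptk7 cKO 5. Cebpb is the 1 panel in which the groups do not overlap, and control 3 is lowest in Junb, Ier2, Cebpb, Cebpd and Jun.

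The 2 Fos genes did not differ between the labels beyond their spread. Fos (chromosome 12, 85473890 to 85477273, plus strand, GRCm38) had 3.64, 3.43, 4.45 and 1.40 CPM in controls 1, 3, 4 and 6, and 4.64, 2.25, 4.39 and 3.19 in the libraries labelled cKO 1, 2, 4 and 5. The highest control and the highest knockout library were nearly level, and control 6 was the lowest of all 8. Its log2 fold change was 0.16 (SE 0.33, edgeR adjusted p = 0.906). It was -0.09 without control 6. Fosb (chromosome 7, 19302721 to 19310045, minus strand) had 0.99, 0.73, 1.29 and 0.44 CPM in controls and 1.88, 0.23, 0.95 and 0.74 in the knockout label. Both the highest and the lowest value fell within the knockout label, the lowest resting on 6 counts, for which counting error alone gives a coefficient of variation of 40.8%. Its log2 fold change was 0.14 (SE 0.52, edgeR adjusted p = 0.956) and turned to -0.43 without the library labelled cKO 1.

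The Jun genes had higher counts than the Fos genes. Jun (chromosome 4, 95049034 to 95052222, minus strand, a gene of 1 exon) had 116, 88.9, 155 and 91.1 CPM in controls and 157, 129, 150 and 124 in the knockout label. Control 4 lay among the knockout libraries, and the other 3 controls lay below all of them. The log2 fold change was 0.31 (SE 0.17, edgeR adjusted p = 0.665). With 1 library left out it was lowest, at 0.21, without control 3 (SE 0.16, edgeR unadjusted p = 0.208). It was highest, at 0.50, without control 4 (SE 0.12, edgeR unadjusted p = 0.00231, adjusted p = 0.412). Jun shares 232 exon bases with the antisense gene Junos, whose 185 counts over all libraries are few beside the 26936 of Jun. Junb (chromosome 8, 84976909 to 84978748, minus strand, 1 exon) had 20.4, 5.16, 21.9 and 16.8 CPM in controls and 13.97, 15.3, 11.9 and 21.4 in the knockout label. Control 3 stood far below the other 7 libraries, which overlapped. For Junb the log2 fold change was -0.04 (SE 0.36, edgeR adjusted p = 0.986) and its sign changed with the library left out, from -0.33 without control 3 to 0.15 without control 4. Without both control 3 and the library labelled cKO 5 it was -0.51 (SE 0.13, edgeR unadjusted p = 0.00388, adjusted p = 0.261). These libraries were left out together after the data were seen, so that p-value is descriptive only.

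Egr1 (chromosome 18, 34859823 to 34864984, plus strand) had 32.4, 27.9, 22.3 and 20.9 CPM in controls and 16, 18.6, 17.7 and 25.8 in the knockout label. The 3 libraries with low Ptk7 lay below every control, and the library labelled cKO 5, whose Ptk7 is at the control level, lay among the controls. With all 8 libraries the log2 fold change was -0.41 (SE 0.17, unadjusted p = 0.0388, edgeR adjusted p = 0.562). Without the library labelled cKO 5 the knockout mean was 17.4 ± 1.33 CPM (SD, n = 3) beside 25.9 ± 5.31 (SD, n = 4) in control, and the log2 fold change was -0.57 (SE 0.15, edgeR adjusted p = 0.318, DESeq2 adjusted p = 0.0571). It was then the 1 member of 10 whose groups did not overlap in the lower direction, as was the case for 5.79% of the 16697 genes tested. In that fit 0.00599% of genes were called and no member was. Ier2 (chromosome 8, 84661331 to 84662852, minus strand, 1 exon) had 67.7, 37.2, 65.1 and 68.7 CPM in controls and 68.7, 70.0, 66.1 and 61.0 in the knockout label. Apart from control 3, the libraries lay within a narrow band. The log2 fold change of 0.16 (SE 0.16, edgeR adjusted p = 0.814) became -0.02 (SE 0.06) without control 3.

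Atf3 (chromosome 1, 191170296 to 191218039, minus strand) had 6.20, 7.99, 9.71 and 3.82 CPM in controls and 12.6, 5.69, 6.95 and 7.89 in the knockout label. The groups overlapped, and the single highest value was that of the library labelled cKO 1. For Atf3 the log2 fold change was 0.26 (SE 0.30, edgeR adjusted p = 0.828), and -0.02 without that library. Zfp36 (chromosome 7, 28376784 to 28379255, minus strand) had 17.98, 20.9, 18.1 and 13.8 CPM in controls and 14.7, 13.3, 16.2 and 15.99 in the knockout label. Control 6 lay with the knockout libraries and the other controls lay above them. Its log2 fold change was -0.23 (SE 0.13, edgeR adjusted p = 0.682), and -0.14 (SE 0.12) without control 3, its highest library.

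Cebpb (chromosome 2, 167688915 to 167690418, plus strand, 1 exon) had 17.6, 10.8, 18.4 and 14.2 CPM in controls, with mean and SD of 15.2 ± 3.49 (n = 4). The knockout label had 28.3, 31.4, 28.6 and 22.9 CPM, with mean and SD of 27.8 ± 3.53 (n = 4). All 4 libraries of the knockout label lay above all 4 controls, including the library labelled cKO 5 with its control level of Ptk7. Cebpb was the 1 member of 10 to do so, beside 2.65% of all tested genes without overlap in the higher direction and 3.11% in the lower. The log2 fold change was 0.87 (SE 0.16, edgeR unadjusted p = 0.000272), and the edgeR adjusted p over all genes was 0.161. DESeq2 called it (adjusted p = 0.000316), as it did 1.13% of the genes it tested, and it was the 1 member called by that tool. Without the library labelled cKO 5 the log2 fold change was 0.95 (SE 0.16, edgeR adjusted p = 0.179, DESeq2 adjusted p = 0.000135), again without overlap, as for 5.29% of genes in the higher direction.

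The count of Cebpb was read beside its base composition and an overlapping gene. Its longest transcript has a GC content of 67.2%, at percentile 99.8 of the tested genes, and control 3 was its lowest library. When an offset for GC content was fitted in each library the log2 fold change was 0.61 (SE 0.12, unadjusted p = 0.00033, edgeR adjusted p = 0.161), that is smaller but in the same direction. Without control 3 it was 0.73 (SE 0.13, edgeR adjusted p = 0.24). Cebpb shares 312 exon bases with Tmem189 on the opposite strand, and as the strand setting of the counting is not given, reads there cannot be told apart. Tmem189 itself had 30.8 ± 2.54 CPM in controls and 30.1 ± 1.06 in the other group (SD, 4 libraries each). Its part in the count of Cebpb was not tested.

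Myeloid cells are rich in C/EBP beta and delta, so their markers were read beside it. Of 7 neutrophil markers, 5 were tested and all 5 had a log2 fold change above 0. The 7 markers summed to 3.65 to 7.76 CPM in controls and 7.77 to 18.1 in the knockout label, with Elane at 0 in every library and Mpo at 28 counts in all. S100a8 had 1.798 ± 0.40 CPM in control against 4.78 ± 2.02 in the libraries labelled cKO (log2 fold change 1.41, SE 0.31, edgeR adjusted p = 0.197, DESeq2 adjusted p = 0.00188). All 10 macrophage markers were tested and 9 had a log2 fold change above 0, with sums of 175 to 281 and 228 to 323 CPM, overlapping between the groups. Mesothelium markers (6 genes, among them Wt1 and Upk3b) summed to 470 to 563 CPM in controls and 603 to 773 in the knockout label, without overlap. Erythroid markers summed to 795 to 2268 and 1362 to 3966, the highest in the library labelled cKO 5. DESeq2 called 1 of the 7, Hba-a2 (edgeR log2 fold change 2.90, DESeq2 adjusted p = 4.54e-06). The other alpha globin gene listed, Hba-a1, overlapped between the groups (edgeR log2 fold change 0.28, DESeq2 adjusted p = 0.942). The part of these cell types in the difference of Cebpb was not tested.

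Cebpd (chromosome 16, 15887286 to 15888466, plus strand, 1 exon) had 27.9, 13.6, 22.5 and 24.0 CPM in controls and 28.1, 30.0, 24.1 and 27.2 in the knockout label. Control 3 stood well below the rest, and control 1 lay within the range of the knockout label. The log2 fold change was 0.31 (SE 0.18, edgeR adjusted p = 0.69) and fell to 0.14 without control 3.

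**Figure D3:**
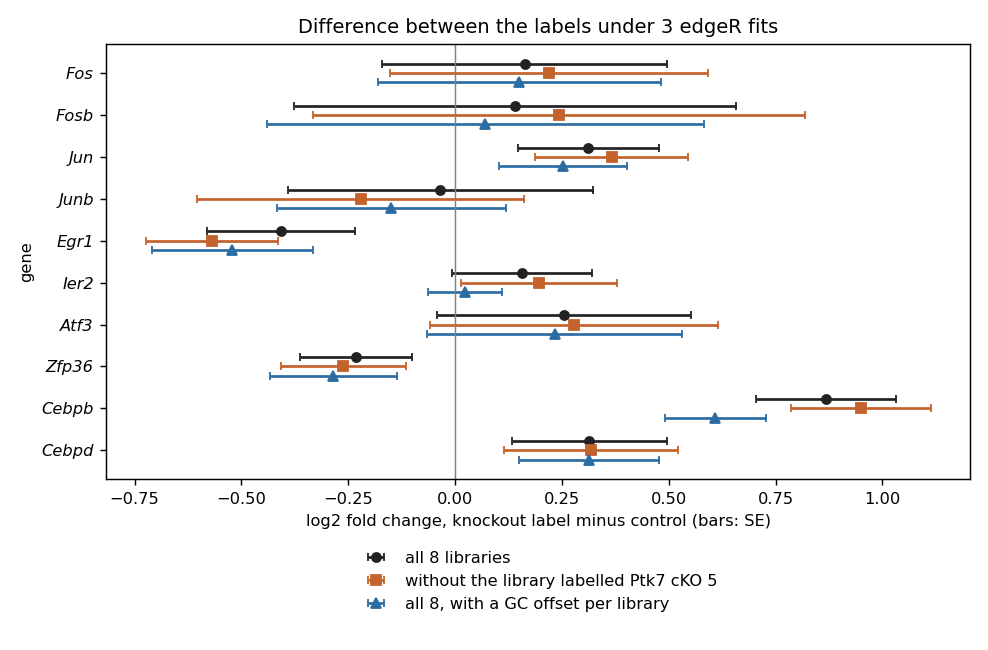
Log2 fold change of each member, knockout label minus control, with its SE, in the edgeR fits of all 8 libraries, of 7 libraries without the one labelled Ptk7 cKO 5, and of all 8 with a GC offset per library. Cebpb lies at 0.87, 0.95 and 0.61 and Egr1 at -0.41, -0.57 and -0.52, while Fos, Fosb, Junb and Atf3 have the widest errors.

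Several members varied more between libraries of 1 label than most genes do. Spread was taken as the SD of log2 CPM around the group means and ranked among the 16469 tested genes. Fosb (SD 0.90), Junb (0.73), Fos (0.61) and Atf3 (0.53) lay at percentiles 98.9, 97.7, 95.3 and 93.1. Zfp36 (0.20) was the steadiest member at percentile 56.7, and the median of the 10 members was 77.4. Fosb and Fos are also the lowest members, whereas the RPKM of Junb lies at percentile 60.9 of the tested genes. The ranking did not match genes by count, and counting error is larger at low counts. At the lowest count it alone gives a coefficient of variation of 40.8% for Fosb, 16.2% for Fos, 9.81% for Atf3 and 8.03% for Junb.

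**Figure D4:**
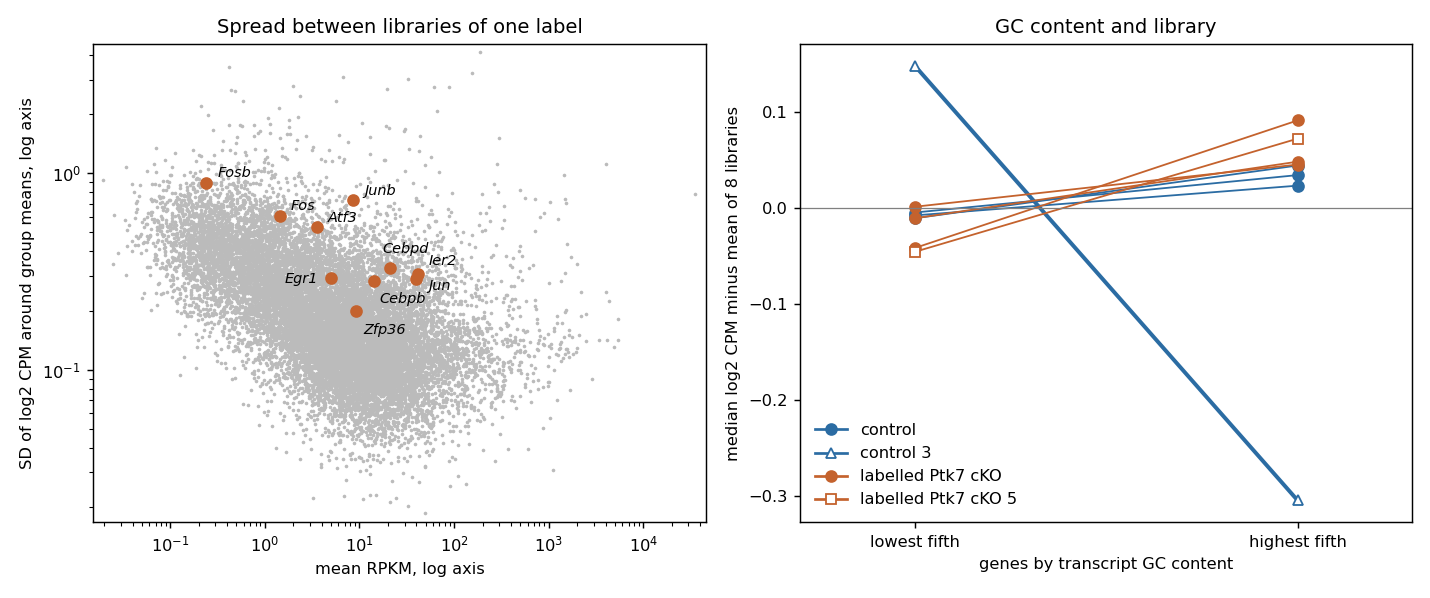
Left, SD of log2 CPM around the group means against mean RPKM (both log axes) for all tested genes, with the members in orange. Right, each library's median log2 deviation in the genes lowest and highest in GC content, where control 3 runs from 0.15 to -0.30 and the other 7 libraries stay between -0.05 and 0.09.

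The libraries that carried this spread were not the same for all members. Control 3 was the lowest of the 8 libraries for 5 members, namely Jun, Junb, Ier2, Cebpb and Cebpd. It was the highest for 1, Zfp36, and for Egr1 it was second to control 1. Its deviation from the mean of the 8 libraries on the log2 scale was -1.49 for Junb, -0.91 for Cebpb, -0.82 for Cebpd and -0.74 for Ier2. At their GC contents of 62.6%, 67.2%, 51.6% and 60.9%, the GC trend fitted to that library was -0.56, -0.80, -0.07 and -0.48. With the GC offset the spread of Ier2 fell from 0.31 to 0.13, at percentile 36.8, and that of Junb from 0.73 to 0.53, still at percentile 93.3. Cebpd changed from 0.33 to 0.30. The spread also fell for Jun and Cebpb, but it rose for Fos, Fosb, Egr1, Atf3 and Zfp36. That of Egr1 went from 0.29 to 0.33 and that of Zfp36 from 0.20 to 0.25. In control 3 Egr1 and Zfp36 deviated by 0.33 and 0.37, whereas the fitted GC trend was -0.30 and -0.16. The median spread percentile of the members was 77.4 without the offset and 79 with it. The mitochondrial share of counts was 3.47% in control 3 and 1.82% to 2.64% in the other libraries, and its part in these values was not tested.

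A different set of libraries separated Fos, Fosb and Atf3. Control 6 and the library labelled cKO 2 were the lowest pair for all 3 genes, and the library labelled cKO 1 was the highest. Among the 45 pairs of members compared over 8 libraries, 8 had an unadjusted p under 0.05 for Pearson's r and 0 passed after Benjamini-Hochberg adjustment, by exact permutation. Fos and Fosb had r = 0.81 (exact permutation p = 0.0161, adjusted p = 0.178) and rho = 0.93 (p = 0.00223, adjusted p = 0.10), and r was 0.84 without control 6 and the library labelled cKO 2, the farthest from the median of Fos. Fos and Atf3 had r = 0.86 (exact permutation p = 0.00441, adjusted p = 0.178) and rho = 0.81 (p = 0.0218, adjusted p = 0.284), which fell to r = 0.54 without the same 2 libraries, so that relation rests partly on them. Ier2 and Cebpd had r = 0.92 (exact permutation p = 0.0363, adjusted p = 0.204) and rho = 0.76 (p = 0.0368, adjusted p = 0.284), with r = 0.80 left when control 3 and the library labelled cKO 5 were removed. Of the 8 pairs 2 were negative. Ier2 and Zfp36 had r = -0.74 (exact permutation p = 0.0148, adjusted p = 0.178) and rho = -0.81 (p = 0.0218, adjusted p = 0.284), with r = -0.82 without the same 2 libraries. Zfp36 and Cebpd had r = -0.73 (exact permutation p = 0.0248, adjusted p = 0.178) and rho = -0.69 (p = 0.0694, adjusted p = 0.284), which fell to r = -0.09 without control 3 and the library labelled cKO 2, so that relation rests on them. The other 3 were Cebpb with Cebpd (r = 0.77), Jun with Cebpb (0.79) and Fosb with Atf3 (0.77), and without the 2 farthest libraries these came to 0.32, 0.28 and 0.79.

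The members as a whole did not rise and fall as a block. Of the 45 pairs 24 had an r above 0, with a median of 0.06 and a range of -0.74 to 0.92, and with the group means removed 27 were above 0, with a median of 0.14. Against the mean deviation of the other 9 members, r over the 8 libraries was 0.84 for Jun, 0.63 for Fos, 0.62 for Fosb and 0.54 for Atf3. It was 0.49 for Cebpb, 0.31 for Junb, 0.30 for Ier2 and for Cebpd, and 0.22 for Zfp36, and only Egr1 was below 0 (-0.05). The mean deviation of the 10 members from their group means was highest in control 4 (0.33) and control 1 (0.23) and lowest in control 6 (-0.29) and control 3 (-0.27). The library labelled cKO 5 lay near the middle (0.03).

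**Figure D5:**
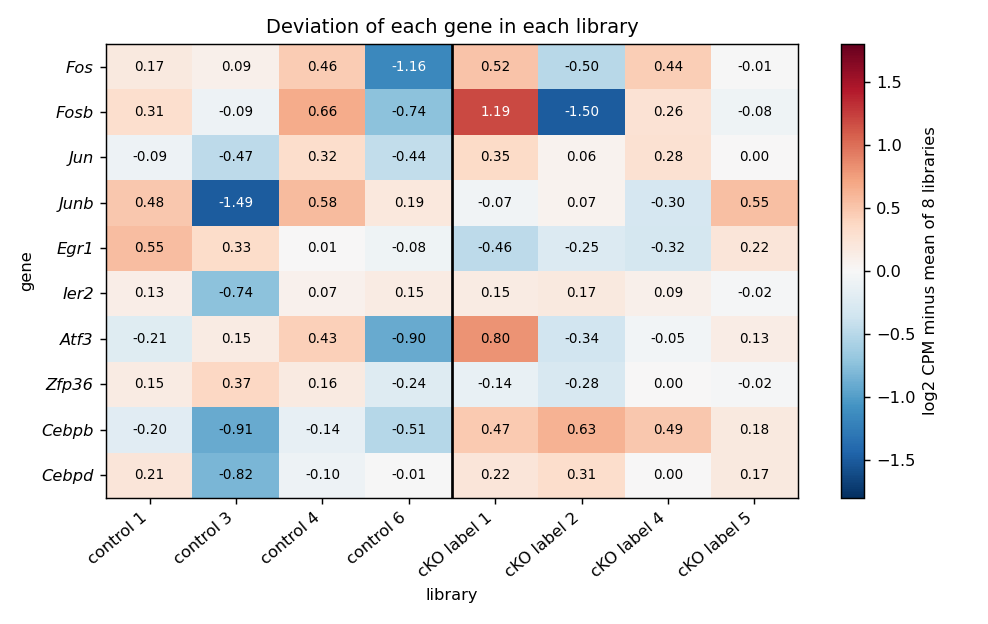
Log2 CPM of each member minus its mean over the 8 libraries, by library, with red above and blue below the mean. Control 3 is low in Junb (-1.49), Cebpb (-0.91), Cebpd (-0.82) and Ier2 (-0.74), while control 6 is low in Fos (-1.16) and Atf3 (-0.90).

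The genes whose deviations from the group means most resembled the mean of the members were searched among 13269 named genes with a mean of at least 1 CPM. They were Galnt16 (r = 0.99), Il6ra (0.97), Aldh1b1 (0.96), Noa1 (0.95), Pcdhb10 (0.94), Il17ra (0.94), Il1rl1 (0.92) and Tph1 (0.91). These were picked as the closest over only 8 libraries, and 11 of the genes searched had r above 0.9. None of the 8 is itself among the 48 other immediate early genes listed.

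Of 48 other immediate early genes listed, 46 were tested and 0 were called in edgeR or in DESeq2. At an unadjusted p under 0.05, 2 were higher and 2 were lower, which is close to the 3.5% and 4.87% of all tested genes, and the median log2 fold change was 0.06. The most abundant per length were Rhob, a small GTPase (154 RPKM), Jund (117) and Mcl1, a survival factor of the BCL2 family (52.0). Rhob had 319.9 CPM in control and 364.5 in the knockout label (log2 fold change 0.19, SE 0.14, edgeR adjusted p = 0.736). Jund had 291.5 and 384.1 CPM (log2 fold change 0.40, SE 0.23, edgeR adjusted p = 0.692), with its lowest value, 152 CPM, again in control 3. Csrnp1 (log2 fold change 0.28, SE 0.09) and Socs3, the feedback inhibitor of cytokine signalling (0.53, SE 0.22), were the 2 higher ones, and Myc (-0.27, SE 0.12) and Bhlhe40 (-0.24, SE 0.10) the 2 lower. Their edgeR adjusted p was 0.373, 0.54, 0.596 and 0.556.

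At the median, the kinases and transcription factors upstream of the response varied less between libraries than most genes do. All 24 were tested and none was called. At an unadjusted p under 0.05, 1 was lower (Mapk8, log2 fold change -0.18, SE 0.07), beside 4.87% of all tested genes. Their median log2 fold change was -0.02, and their median spread lay at percentile 26.0. The most abundant per length were the MAP kinase Mapk3 (76.6 RPKM) and the stress kinase Mapkapk2 (69.0). Srf, the serum response factor, had 129, 74.2, 131 and 121 CPM in controls and 125, 113, 119 and 138 in the knockout label. Control 3 was again the lowest, and the other libraries overlapped. The spread of Srf lay at percentile 73.3, well above the median of its list.

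Stress programmes other than the immediate early response showed no call between the labels. Of 18 heat shock genes 1 was higher at an unadjusted p under 0.05, Hspa1a (2.46 ± 0.84 CPM in controls and 3.93 ± 0.58 in the other group, SD, 4 libraries each, edgeR adjusted p = 0.491), and the median log2 fold change was -0.01. Of 15 endoplasmic reticulum and integrated stress genes 1 was higher (Ddit3) and 1 lower (Sesn2, median 0.13), and of 14 hypoxia genes 0 were (median 0.01). Of 9 tested NF-kB and inflammatory genes 2 were higher (Socs3 and Lif, median -0.01). Over all tested genes 3.5% were higher and 4.87% lower at that p. Ddit3 and Socs3 were already counted in the C/EBP family and the other immediate early genes. Among the inflammatory genes, Il6, Il1b, Cxcl1, Cxcl2, Ccl3 and Ccl4 were too low to test. The most abundant heat shock genes per length, the chaperones Hsp90ab1, Hspa8 and Hspd1, had log2 fold changes of 0.04, -0.01 and -0.10. Those of the endoplasmic reticulum and integrated stress list, the chaperone Hspa5 and the transcription factors Atf4 and Xbp1, had 0.05, 0.01 and 0.13. The glycolytic enzymes Ldha and Pgk1 and the glucose transporter Slc2a1, the most abundant of the hypoxia list, had 0.02, -0.05 and -0.16. Among the inflammatory genes Nfkbia, the inhibitor of NF-kB, and Nfkb2, a subunit of it, both had -0.01, beside Socs3 given above.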

How the data were processed

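Gene expression was measured by RNA sequencing in 8 libraries, 4 control and 4 labelled Ptk7 cKO. Per the submitters' processing notes, STAR and featureCounts were used on GRCm38. The sources used here do not name their versions, strand setting, annotation release or treatment of reads that match several places. The authors deposited unnormalized read counts for each gene beside its exon length, which served only for RPKM. Of the 46517 genes, 512 had no symbol.

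The main test was edgeR 4.0.16 in R 4.3.3 (TMM factors, filterByExpr, a quasi-likelihood fit of label in all 8 libraries, Benjamini-Hochberg adjustment over all 16469 genes tested, threshold 0.05). The SE is the log2 fold change divided by the square root of F. CPM values are TMM-scaled, log2 CPM has a prior count of 2, and the biological coefficient of variation was 15.2%. No library was a repeat of another within sampling noise (28 pairs, chi-square over its degrees of freedom from 15.5 to 95.5). GC content is that of the longest GENCODE M21 transcript (99.7% of tested genes), and the offset is a loess fit of each library's deviation on it.

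The members and lists were chosen with earlier results of these data known. Named genes were all members, list genes called over all genes, the 3 most abundant per length in each response list (1 of these is not reported here), and the 8 most alike in pattern. Other named genes were chosen after their values were seen. Alternatives were DESeq2 1.42.0 and its size factors, upper-quartile factors, other filters, limma 3.58.1 voom, sva 3.50.0, a replicate block and leaving out each library. DESeq2 without the library labelled cKO 5, edgeR without it and control 3, and the GC offset were added after seeing the data. Code was tested on simulated counts.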

Additional observations from a re-analysis of the deposited data

Results flagged for a closer look

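Ier2 in control 3, at 37.2 CPM, lay apart from the other 3 controls, which stood at 65.1 to 68.7. The gap to its nearest neighbour as a share of the range of the 4 controls exceeded Dixon's 95% critical value. This was the 1 such value among the 20 combinations of member and label examined, and chance gives about 1 in 20.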

How the results depend on the processing

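Of 189 recomputed member fold changes, 176 kept their direction and side of the threshold, 11 changed sign and 2 (Cebpb in DESeq2 with and without the library labelled cKO 5) passed it. Cebpb stayed above 0 in all 19 alternatives (0.61 to 0.97) and Egr1 below 0 (-0.68 to -0.28). In the 17 tested with edgeR or voom, the adjusted p of Cebpb was 0.0716 to 0.427. Genes called numbered 0 in the main fit, 1 with no filter on low counts, 184 with DESeq2, 177 with DESeq2 without the library labelled cKO 5, 3 without that library and control 3, and 0 to 2 when 1 library was left out (2 without control 1, 1 without the library labelled cKO 5). Members called numbered 1 with DESeq2 with and without that library. Members at an unadjusted p under 0.05 numbered 1 to 3 when 1 library was left out. Their median spread percentile was 59.1 with no filter on low counts. With 1 library left out the log2 fold change ranged from -0.085 (without control 6) to 0.357 for Fos, -0.43 to 0.47 for Fosb, -0.33 to 0.15 for Junb, -0.015 (without control 3) to 0.231 for Ier2 and -0.021 (without the library labelled cKO 1) to 0.459 for Atf3. Over all alternatives Jun ranged from 0.18 (1 surrogate variable) to 0.50 (without control 4), Zfp36 from -0.34 (without control 6) to -0.10 (1 surrogate variable), and Cebpd from 0.05 (1 surrogate variable) to 0.45 (without control 1). Junb was -0.71 with the replicate block (edgeR unadjusted p = 0.00142, adjusted p = 0.167), -0.55 with 1 surrogate variable (unadjusted p = 0.0392, edgeR adjusted p = 0.781) and -0.51 without control 3 and the library labelled cKO 5. Fosb was -0.35 with limma voom, and Ier2 -0.12 with 1 surrogate variable. The causes were not tested. With the replicate block over the 4 libraries that share the numbers 1 and 4, 7 genes and no member were called; the labels do not say that a number marks a shared litter or day, and same-numbered libraries correlated at -0.09 and 0.02 across genes. The planned fit without the library whose Ptk7 goes against its label is the one without cKO 5. Fosb gave no value under the filter of at least 1 CPM. Depth limits Fosb most.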

Other observations

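Among the stress genes listed, 2 stood out by single libraries that did not follow the label. Both were chosen after their values were seen, and neither is explained here. Slc7a11, the cystine transporter and a target of ATF4, had 11.03 CPM in control 1 and 12.5 CPM in the library labelled Ptk7 cKO 2, and between 0.50 and 0.92 CPM in the other 6 libraries. Hspa8, the constitutive heat shock chaperone, had 658 CPM in control 3, 672 in the library labelled cKO 5 and 522 in the library labelled cKO 1, but 163 in the library labelled cKO 2 and 239 to 368 in the other 4. Its log2 fold change was -0.01 (SE 0.42, edgeR adjusted p = 0.997). The order of the libraries in Hspa8 was not that of Fos, where control 6 was the lowest and the library labelled cKO 1 the highest.

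Ddit4, a stress-induced inhibitor of mTOR signalling, had 30.0 CPM in control 3 and 81.2 to 136 CPM in the other 7 libraries, and it too was chosen after its values were seen.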
